A study of Mus musculus with 12 samples.

Results

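Withdrawal of myoblasts from the cell cycle is governed by a small set of genes, of which 10 were examined here: the CDK inhibitor genes Cdkn1a, Cdkn1b, Cdkn1c and Cdkn2c, the pocket protein genes Rb1 and Rbl1, the D cyclin genes Ccnd1, Ccnd2 and Ccnd3, and E2f1. Their rows were taken by gene name from the 3 deposited tables. A row was found for 8 of the 10, among 10289 genes with a row in any table, and none was found for Cdkn1b or Cdkn1c. The cells were C2C12, a mouse myoblast line that proliferates in growth medium (GM) and fuses into myotubes in differentiation medium. RNA-seq was performed on GFP-overexpressing C2C12 cells on day 0 and on day 4 (D4), and on Mettl3-overexpressing and Mettl14-overexpressing cells on day 0, with 2 libraries per group and 8 in all. The time point field of the Mettl14-overexpressing libraries read D4 while their titles read D0, and the titles were followed. The paper likewise describes the Mettl14-overexpressing cells of its RNA-seq as kept in GM. All of these were stable lines made with lentiviral vectors carrying a CMV promoter and selected with puromycin, so the GFP control cells also carried a vector. Whether the lines were single clones is not given in the sources used here. The 4 MeRIP-seq libraries were not analysed here.

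In proliferating cells, D cyclins bind CDK4 and CDK6, and the active kinases phosphorylate the pocket proteins, which then release E2F transcription factors to switch on genes for S phase. INK4 proteins such as the product of Cdkn2c bind CDK4 and CDK6 directly, whereas the Cip/Kip proteins encoded by Cdkn1a, Cdkn1b and Cdkn1c bind cyclin-CDK complexes. In muscle, p21, the product of Cdkn1a, and the retinoblastoma protein, the product of Rb1, are known for holding differentiating cells out of the cell cycle.

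The value used is the authors' mean normalized count, a gene's read count divided by a size factor for each library and averaged over libraries. Where several tables listed a gene they gave the same mean, apart from rounding (largest relative difference 4.77e-10). Which libraries entered the mean is not stated. Equal means across the tables point to a common set of libraries, which would mix growing and differentiated cells and control and overexpressing lines. The mean carries no direction of change. Values of single libraries are not given in the tables, so no spread or test can be given for any level, and neighbouring levels are not shown to differ. The paper lists an overview of its RNA-seq reads, which was not used here. Of the muscle genes, Des, the intermediate filament gene of muscle, had an authors' mean normalized count of 24157 and Myog, a transcription factor of differentiation, of 2124. The other muscle genes looked at, Myod1 and Myf5, had 1845 and 593. Myod1 had no row for D4 against GM. The proliferation genes Mki67 and Top2a had 5812 and 5855. The markers Ptprc, Pecam1, Epcam and Adipoq of blood, endothelium, epithelium and fat had no row. A missing row gives no level and does not show that a gene is silent.

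The tables list genes that passed the authors' limit on the false discovery rate (FDR ≤ 0.05), and a gene without a row has no value here. In the table for D4 against GM, 8 of the 10 genes had a row, compared with 40.0% of the 22028 protein-coding genes annotated in GENCODE M21. In the table for Mettl3-overexpressing cells 1 of the 10, Ccnd2, had a row, compared with 7.78% of protein-coding genes. In the table for Mettl14-overexpressing cells none of the 10 had a row, compared with 4.90% of protein-coding genes. The annotated genes include genes that are silent in these cells and are therefore a wider base than the genes the authors tested. These counts say which genes the files list and give neither the size nor the direction of a difference. The GFP libraries in GM are common to all 3 tables.

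Among the CDK inhibitors, Cdkn1a (ENSMUSG00000023067, GRCm38 chromosome 17, 29090976 to 29100727, plus strand) had the highest level of the 8 genes. Its authors' mean normalized count of 5586 ranked 312 among the 10289 genes and was higher than that of 97.0% of them. Divided by the 3553 bases of its annotated exons, the mean of Cdkn1a was 1572 per kb. Cdkn2c (ENSMUSG00000028551, chromosome 4, 109660876 to 109667189, minus strand) encodes the INK4 inhibitor p18 and had an authors' mean normalized count of 420, higher than that of 48.0% of genes with a row. Its mean per kb of exon was 156. The Cip/Kip genes Cdkn1b, which encodes p27, on chromosome 6 (134920401 to 134925513), and Cdkn1c, which encodes p57, on chromosome 7 (143458339 to 143461050), have no value. Cdkn1a is therefore the sole Cip/Kip gene whose level could be read.

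The D cyclins are the regulatory subunits of CDK4 and CDK6. Ccnd1 (ENSMUSG00000070348, chromosome 7, 144929931 to 144939925, minus strand) had an authors' mean normalized count of 2862 and a mean of 608 per kb of exon. Ccnd3 (ENSMUSG00000034165, chromosome 17, 47505051 to 47599691, plus strand) had an authors' mean normalized count of 1387 and a mean of 158 per kb. Ccnd2 (ENSMUSG00000000184, chromosome 6, 127125162 to 127152193, minus strand) had an authors' mean normalized count of 640 and the lowest mean per kb of the 8 genes, 68.0. The mean per kb of exon of Ccnd1 was thus 8.94 times that of Ccnd2 and 3.85 times that of Ccnd3. The order Ccnd1, Ccnd3, Ccnd2 was kept under each of the 3 measures of length used, but the distances were not. Per kb of the longest coding transcript the mean of Ccnd1 was 1.17 times that of Ccnd3, and per kb of its coding part 2.04 times. The longest Ccnd3 transcript of any kind has 3858 bases, and per kb of the longest transcript of any kind the mean of Ccnd1 was 2.13 times that of Ccnd3. Ccnd3 has 16 annotated coding transcripts and 8775 bases of annotated exon, whereas its longest coding transcript has 2113 bases.

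The pocket proteins bind and restrain E2F factors. Rb1 (ENSMUSG00000022105, chromosome 14, 73183673 to 73325822, minus strand) had an authors' mean normalized count of 1045 and a mean of 174 per kb of exon. Rbl1, which encodes p107 (ENSMUSG00000027641, chromosome 2, 157145893 to 157204534, minus strand), had an authors' mean normalized count of 748 and a mean of 125 per kb. The mean per kb of exon of Rb1 was 1.39 times that of Rbl1, and 1.46 and 1.61 times with the other measures of length. E2f1 (ENSMUSG00000027490, chromosome 2, 154559407 to 154569892, minus strand) encodes an E2F factor that activates S phase genes. Its authors' mean normalized count was 705. Its mean of 224 per kb of exon was the third highest of the 8, but E2f1 fell behind Ccnd3 per kb of the longest coding transcript (256 against 656) and also behind Cdkn2c and Ccnd2 per kb of coding sequence (609, beside 828 and 736).

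**Figure D1:**
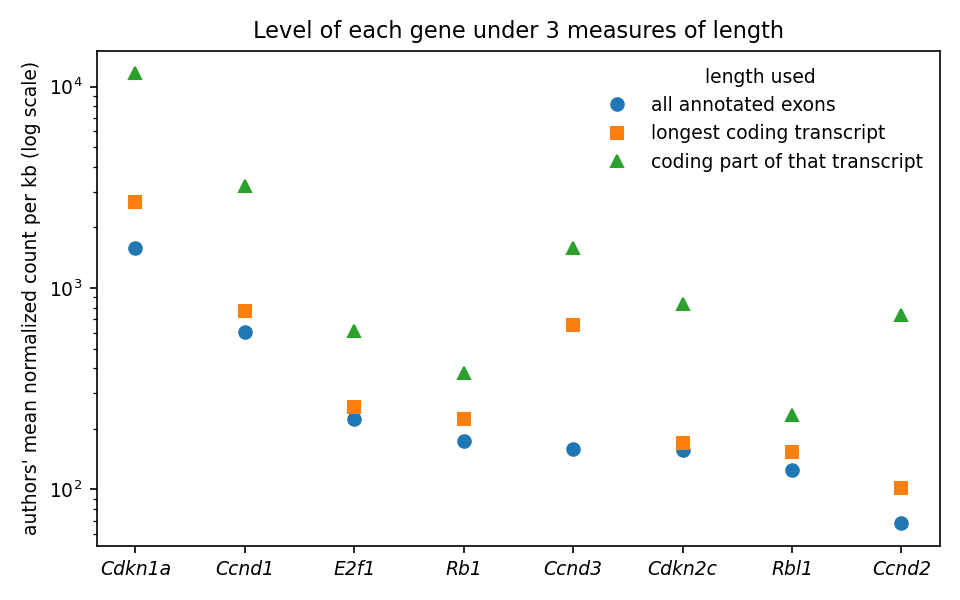
Authors' mean normalized count per kb (log axis) of the 8 genes with a row, ordered by the value per kb of annotated exon; circles, squares and triangles stand for the 3 measures of length. Cdkn1a and Ccnd1 are the highest under each measure, at 1572 and 608 per kb of annotated exon, and Ccnd3 moves most between exons (158) and longest coding transcript (656).

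Ordered by the authors' mean normalized count per kb of annotated exon, the genes ran Cdkn1a, Ccnd1, E2f1, Rb1, Ccnd3, Cdkn2c, Rbl1 and Ccnd2, with a ratio of 23.1 between first and last. Cdkn1a and Ccnd1 stayed first and second with each measure of length. The lowest gene was Ccnd2 per kb of exon and of longest coding transcript, and Rbl1 per kb of coding sequence (234). The median of the 8 genes was 166 per kb of exon, beside 99.6 per kb for all genes with a row, and 7 of the 8 were above the latter value, Ccnd2 being below it. By the authors' mean normalized count without division by length the median percentile of the 8 genes was 68.2. These medians cover the 8 genes that passed the authors' limit and not the 10 that were named.

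**Figure D2:**
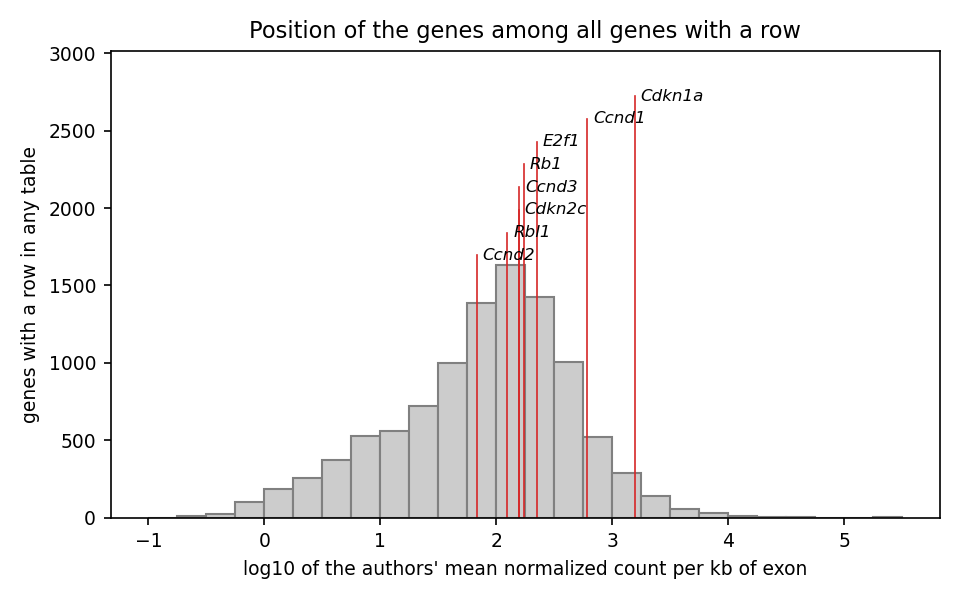
Histogram of the log10 of the authors' mean normalized count per kb of exon over the genes with a row in any table; red lines mark the 8 genes and their heights carry no value. Ccnd2 (68.0 per kb) lies below the median of all genes of 99.6, and Ccnd1 (608) and Cdkn1a (1572) lie in the upper tail.

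Some exons of the genes are shared with genes on the other strand, and whether the reads were counted by strand is not given in the sources used here. For Ccnd1, 23.4% of the annotated exon bases overlap exons of a protein-coding gene on the opposite strand. For Cdkn1a the overlapping share was 7.68%, and for Ccnd3 4.11%. For Rb1, exons of 2 protein-coding genes on the opposite strand cover 6.78% and 8.11% of its exon bases. Ccnd2 shares 3.91% and 3.95% with 2 antisense transcripts. Of the genes without a value, Cdkn1c shares 30.7% of its exon bases with an antisense transcript. No overlapping exons were annotated for Cdkn1b, Cdkn2c, Rbl1 or E2f1. The part of these overlaps in the levels was not tested.

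The 8 genes were set beside 19 other genes of the G1/S pathway, the kinases, E and A cyclins, remaining INK4 and pocket protein genes, and E2F and DP genes. A row was found for 17 of the 19, and the INK4 genes Cdkn2a and Cdkn2b had none. Their median level was 160 per kb of exon, with a range from 28.9 for Tfdp2, which encodes an E2F dimerization partner, to 1759 for Cdk4, the kinase partner of the D cyclins. The mean per kb of exon of Cdk6, the other D cyclin partner, was 122. Of the E2F genes, E2f4, a repressor bound by pocket proteins, was the highest with 602 per kb of exon, beside 224 for E2f1. The remaining INK4 gene with a row, Cdkn2d, was at 124 per kb and the third pocket protein gene, Rbl2, at 108. Of the 17 genes, 14 were above the median of 99.6 per kb of exon for all genes with a row. A level above that median was thus not particular to the 8 genes. In the table for D4 against GM 17 of the 19 had a row, beside 40.0% of protein-coding genes, a base that includes silent genes. In the table for Mettl3-overexpressing cells 3 of the 19 had a row (Cdk4, Rbl2 and E2f2), beside 7.78%, and in that for Mettl14-overexpressing cells 2 of the 19 (Cdk6 and E2f2), beside 4.90%.

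The transcripts differed in features that the choice of genes did not use. The 3′ UTR made up 81.7% of the longest coding transcript of Ccnd2 (5173 of 6330 bases), 75.5% of that of Cdkn1b and 71.6% of that of Ccnd1. In Cdkn2c it made up 15.1%, and the 5′ UTR of 1591 bases was the longest part. The median share over the 10 genes was 40.6%, close to the 39.4% over genes with a row and a coding transcript (n = 9253). The study concerns m6A, which is deposited within a short consensus around GGAC, so occurrences of GGACT on the sense strand were counted. The 10 transcripts held 37, of which 17 lay in 3′ UTRs, 15 in coding sequence and 5 in 5′ UTRs. The share in 3′ UTRs was thus 45.9%, beside 38.4% over genes with a row. These shares were not corrected for the length of the 3′ UTRs and so show no excess of GGACT there. Ccnd2, with its 3′ UTR of 5173 bases, and Cdkn1a held 6 and 4 of the 17. Cdkn1a had 4, all in the 3′ UTR, which gave the highest density of the 10 genes (1.92 per kb), and Ccnd2 had 6, also all in the 3′ UTR (0.95 per kb). Rbl1 had 7, 5 of them in coding sequence. The median density was 1.00 per kb, beside 1.05 per kb over genes with a row, and 5 of the 10 genes were above the latter. A match of these letters is not a measured m6A site.

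**Figure D3:**
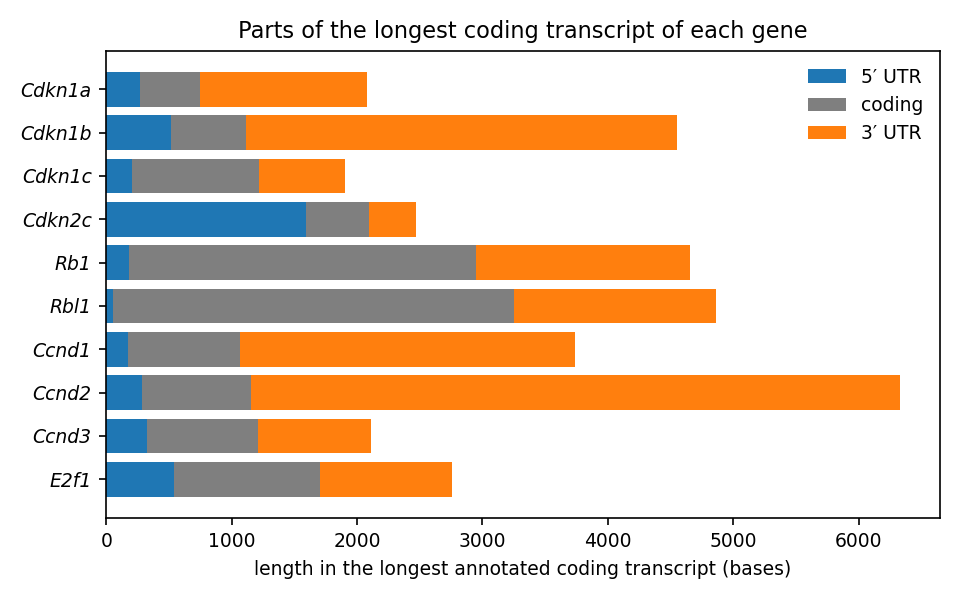
Length in bases of the 5′ UTR, coding part and 3′ UTR of the longest coding transcript of each of the 10 genes in GENCODE M21. Ccnd2 has the longest 3′ UTR (5173 bases), Cdkn2c has the longest 5′ UTR (1591 bases), and Rb1 and Rbl1 have the longest coding parts.

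Promoter sequences from RefSeq (GRCm38.p6, 250 bases before to 50 after a start) were matched for 6 of the 10 genes: Cdkn1a, Cdkn1b, Cdkn2c, Rbl1, Ccnd3 and E2f1. Both strands were searched for the E2F letters TTTCCCGC, TTTCGCGC, TTTGCCGC and TTTGGCGC and for the E-box CAGCTG, of the type that myogenic factors bind. An E2F match was found in 2.26% and an E-box match in 16.3% of 32851 promoters of the same length. Rbl1 had a match of each kind, Cdkn1a had an E-box match in 1 of its 2 promoters, and no match was found in the other windows. The windows of E2f1 and Cdkn2c lie inside the annotated genes, whose 5′ ends are at chr2:154569892 and chr4:109667189. The sequence upstream of those 5′ ends was therefore not searched, and only exact matches of the letters were counted. The lack of a match in these windows thus does not show that a gene has no E2F site. The matches are printed because they are what sets these windows apart from the others searched, with the motif in capitals, 5′ to 3′ on the strand of the gene. The first lies at chr2:157204534-157204563 on the minus strand, with the motif starting 18 bases before the RefSeq start, the second at chr2:157204700-157204729 on the same strand, and the third at chr17:29090999-29091028 on the plus strand, starting 37 bases after the start.
Rbl1 E2F match: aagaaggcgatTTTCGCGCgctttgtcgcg
Rbl1 E-box match: cccggagccccgCAGCTGcccacccagggc
Cdkn1a E-box match: tgatgatacccaactacCAGCTGtggggtg
These matches describe the reference sequence and say nothing about binding in these cells.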

How the data were processed

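RNA-seq reads were aligned by the authors to GRCm38 with hisat2, counted over genes with featureCounts (Ensembl annotation, version 102) and compared with DESeq2, and genes with FDR ≤ 0.05 were deposited. Versions of the programs are not given in the sources used here. The deposited mean normalized count is a signal that the authors averaged over libraries; which libraries entered it is not stated. The remaining columns hold the authors' own comparisons (log2 fold change, standard error, Wald statistic and p-values) and were not used, nor was an unheaded value in 2 of the tables. As no value per library was analysed here, no test was made. Depth per library was not used here.

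The genes and lists were chosen with earlier results of these data known. Every one of the 10 genes is named, together with G1/S genes from a list. Exon unions, transcripts and overlaps came from GENCODE M21 (GRCm38), in which 10285 of 10289 identifiers were found. A percentile is the share of genes with a row whose mean is lower. The functions were tested on simulated data. Alternatives were other lengths, other sets of ranked genes, a mean normalized count of at least 10, and the mean over all coding transcripts. Python 3.11.15 and matplotlib 3.10.9 were used.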

Additional observations from a re-analysis of the deposited data

How the results depend on the processing

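The median authors' mean normalized count of the 8 genes with a row was 166 per kb of annotated exon, 240 per kb of the longest annotated transcript of any kind and 782 per kb of coding sequence, which is shorter by construction. Their median percentile was 68.2 among all genes with a row, 65.0 among protein-coding genes, 67.9 among genes of the table for D4 against GM, 66.1 among genes whose mean was at least 10, and 64.1 when ranked per kb of exon. The median density of GGACT over the 10 genes was 1.00 per kb in the longest coding transcript and 0.89 per kb as a mean over coding transcripts. The mean of Ccnd2 was the same in both tables that list it. Leaving out replicates could not be run. No paired analysis was possible because the tables hold no value per library, and the means carry no error.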
